A study of Rattus norvegicus with 14 samples.

Results

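The genes described here are 10 in number: the coactivators Ppargc1a and Ppargc1b, the kinase subunit Prkaa2, the nuclear receptors Esrra, Esrrg, Ppara and Ppard, and the factors Nrf1, Gabpa and Tfam. They were picked by name and not by their levels, and every array probe carrying a member's gene name was used. That gave 13 probes of 10 genes, out of 30367 probes and 18398 named genes on the array; Ppard, Nrf1 and Gabpa have a pair of probes each and the other genes a single probe. All 13 probes were well above background on 14 of 14 arrays and passed the filter on dim probes.

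The muscle is plantaris, a fast calf muscle, taken from Wistar rats and measured with 1 array per sample (14 arrays). Control rats (n = 4) were given 1000 IU of vitamin D per kg of feed. The depletion group (n = 6) had a vitamin D depletion diet. In the repletion group (n = 4) depletion was followed by vitamin D repletion. The titles number the rats of a group as biological replicates. Sex, age, the duration of each diet and the vitamin D content of the other diets are not stated by the labels. The diet field of depletion replicate 1 gives the repletion diet although its title says depletion; it was kept with depletion, and member results that turn on it are also given without it.

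Ppargc1a and Ppargc1b encode PGC-1 alpha and PGC-1 beta, coactivators with no DNA binding of their own. They dock on transcription factors, among them the estrogen-related receptors (Esrra, Esrrg), the peroxisome proliferator-activated receptors (Ppara, Ppard) and NRF1, and raise transcription of genes for fat oxidation, respiration and mitochondrial growth. Exercise and energy stress act on PGC-1 alpha partly through AMP-activated protein kinase, whose main catalytic subunit in muscle is encoded by Prkaa2; NRF1 and GABP then drive Tfam, the factor that starts transcription of mitochondrial DNA and packs it.

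The probes of the coactivators, and the opening bases of the Nrf1 pair, are shown because the values below rest on them. All are the array's own probes, 5′ to 3′ as its scanner files give them.
Ppargc1a, A_44_P305482, rn4 chr14:64365667-64365726: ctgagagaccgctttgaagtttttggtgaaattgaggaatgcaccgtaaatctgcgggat
Ppargc1b, A_44_P116300, rn4 chr18:57280683-57280742: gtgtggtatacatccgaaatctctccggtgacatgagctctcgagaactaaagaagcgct
Nrf1, A_64_P128454, rn4 chr4:57048071-57048130, first 30 bases: gaagacggagatattatcttcttcaaattt
Nrf1, A_64_P148383, rn4 chr4:57030517-57030576, first 30 bases: agtcctgtctggggaaaccgcagcagccgt
The probes of Ppargc1a and Ppargc1b each have 1 reading frame without a stop codon over 60 bases. The Nrf1 probes lie 17.6 kb apart on the chromosome and differ in base composition, with 35% G and C in A_64_P128454 and 55% in A_64_P148383.

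Promoter windows of 60 bases show where the binding letters of 3 factors of this circuit occur among the members themselves. They come from RefSeq, build GRCr8, with the motif in capitals.
Ppargc1a, cyclic AMP response element, chr14:63634101-63634160, plus strand: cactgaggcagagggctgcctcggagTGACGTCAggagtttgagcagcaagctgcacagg
Esrra, NRF1 core, chr1:213543387-213543446, minus strand: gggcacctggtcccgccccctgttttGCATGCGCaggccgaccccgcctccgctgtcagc
Ppara, NRF1 core, chr7:118712483-118712542, plus strand: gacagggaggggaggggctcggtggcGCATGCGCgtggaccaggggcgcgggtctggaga
Gabpa, ETS core, chr11:37375153-37375212, plus strand: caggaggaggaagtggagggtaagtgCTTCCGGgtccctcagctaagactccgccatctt
Tfam, ETS core, chr20:17355291-17355350, plus strand: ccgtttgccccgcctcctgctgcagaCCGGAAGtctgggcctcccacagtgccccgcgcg
The search covered both strands, so the Gabpa window shows the ETS core CCGGAAG in reverse. Ppard had no entry, and 9 of 10 genes had a promoter of 250 bases before and 50 after the start. Over all 33469 promoters the response element TGACGTCA was found in 1.83%, the NRF1 core GCATGCGC in 2.47% and the ETS core in 8.75%. The half-site AAGGTCA, read by estrogen-related receptors, was in 4.61% of all promoters and in 0 member promoters. These matches are descriptions of letters and were not set against any binding data.

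A level here is log2 of the scanner's processed signal over that array's 75th percentile, so each unit is a doubling and a level of 0 is a bright spot. Levels of different probes cannot be compared, because probes differ in how they bind. The 75th percentile itself lay between 1781 and 2387 signal units, and the share of spots called well above background ran from 82.8% to 88.1% over the arrays. The muscle fibre markers (Ckm, Acta1, Mb, Tnnt3, Myh4, Actn3, Pygm) were all well above background on every array, with summed levels of 1294 to 1764 times the 75th percentile. Arrays came on 5 slides, and the slide moved many probes: 7400 of 26391 (28%) passed limma's F test for slide at an adjusted p under 0.05. The differences below therefore come from a fit with slide as a block unless another setting is named. In bulk muscle, fewer cells of a type and less RNA per cell cannot be told apart.

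No member differed between diets after adjustment over all probes. In each of the 3 comparisons 0 of 13 member probes passed an adjusted p under 0.05 in limma's moderated test, and over all 26391 probes 0% passed as well. The smallest adjusted p of a member was 0.833 for depletion against control, 1.0 for repletion against control and 0.933 for repletion against depletion. At an unadjusted p under 0.05, 1 member probe (A_64_P128454 of Nrf1) was higher in depletion than in control and 0 were lower, beside 2.14% of all probes higher, 2.69% lower and 4.83% (1274) in either direction. For repletion against control 2 were higher (the same Nrf1 probe and Esrrg) and 0 lower, beside 1.3% higher, 0.69% lower and 1.99% (524) in either direction. For repletion against depletion 1 was higher (Esrrg) and 0 lower, beside 2.51% higher, 0.959% lower and 3.47% (915) in either direction. The diet F test called 0% of probes as well, and 3.1% at an unadjusted p under 0.05.

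The signs of the member differences are given beside those of all probes, and Ppard, Nrf1 and Gabpa count with a pair of probes each. Of the 13 probes, 9 had a negative and 4 a positive difference from control, with a median log2 difference of −0.09, beside −0.02 over all probes, of which 54.7% were negative. Repletion against control had 9 positive and 4 negative differences with a median of 0.04, beside 0.01 over all probes, of which 46.5% were negative. Repletion against depletion had 11 positive and 2 negative with a median of 0.14, beside 0.04 over all probes, of which 41.1% were negative. These 3 comparisons share arrays, so they are not independent of each other. Without depletion replicate 1 the median for depletion against control was −0.01, and with that array counted as repletion the median for repletion against depletion was 0.04.

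**Figure D1:**
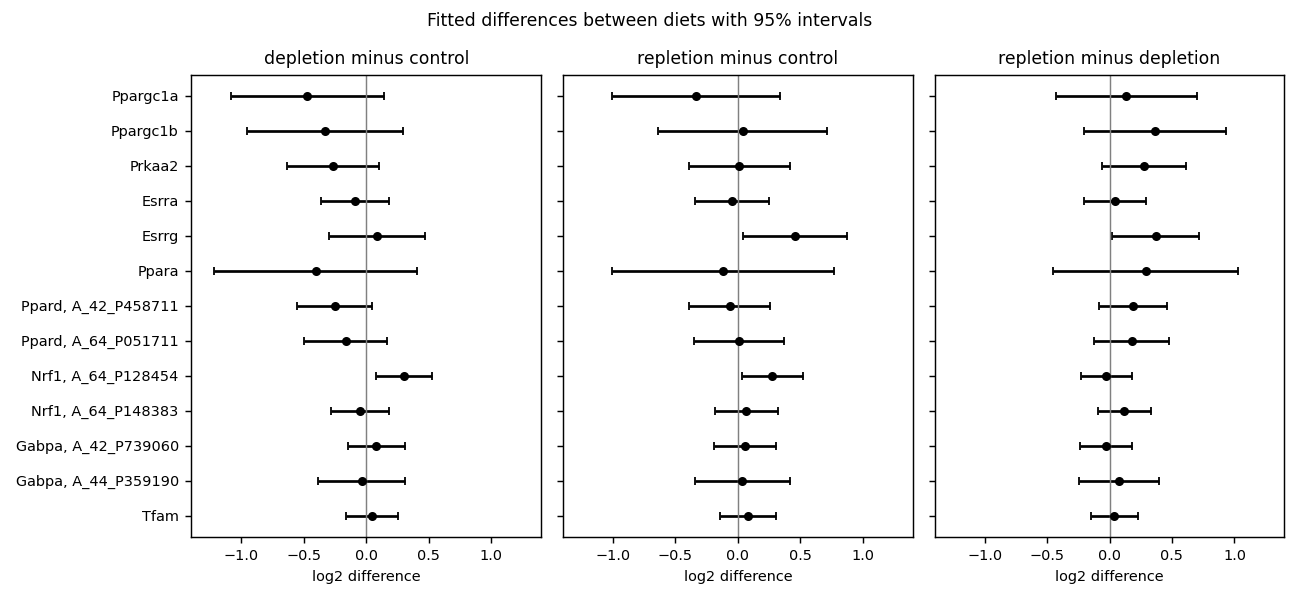
Log2 differences (points) with 95% intervals (bars) from limma's fit with slide as a block, for 13 probes in 3 comparisons. Intervals of A_64_P128454 of Nrf1 lie above 0 in both comparisons with control and those of Esrrg above 0 in both comparisons with repletion; the other intervals include 0.

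Ppargc1a had its highest level on a control array. The 4 control arrays read −2.07, −3.26, −3.39 and −3.52, and the 4 repletion arrays −3.16, −3.56, −3.55 and −3.60. The 6 depletion arrays ran from −4.24 through a median of −3.66 to −3.34. Control replicate 1 stood alone at the top, and control replicate 2 also lay above every depletion array, while replicates 3 and 4 fell within the ranges of both other groups. All 6 depletion arrays lay below the control mean, as did all 4 repletion arrays. The fitted difference of depletion from control was −0.47 ± 0.27 (SE; limma adjusted p = 0.833), a fold of 0.721 with a 95% interval of 0.471 to 1.1. Without control replicate 1 it was −0.21, and without depletion replicate 1 −0.30. Within slides that held both groups, the difference was −0.94 on slide 1, −0.11 on slide 2 and −0.20 on slide 4. Repletion differed from control by −0.34 ± 0.30 (limma adjusted p = 1.0), and by −0.04 without control replicate 1. Repletion against depletion was 0.14 ± 0.25, with an interval that runs from −0.43 to 0.70, and 0.012 to 0.245 with single arrays left out.

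Ppargc1b, the other coactivator, read 0.02, −0.01, −0.54 and 0.27 on the control arrays and −0.19, 0.19, 0.13 and −0.01 on the repletion arrays. In depletion the arrays ran from −1.18 through a median of −0.17 to 0.26. The lowest is depletion replicate 1, the array with the contradictory diet field, and the other groups lie inside the depletion range apart from control replicate 4. The difference of depletion from control was −0.33 ± 0.28 (limma adjusted p = 0.845) and became −0.005 without depletion replicate 1 and −0.72 without control replicate 3. Within slides it was −1.18, 0.80 and −0.46 on slides 1, 2 and 4, so its sign changed from slide to slide. Repletion against depletion gave 0.37 ± 0.25 (limma adjusted p = 0.933), and 0.16 without depletion replicate 1.

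Prkaa2 was printed at 10 spots per array, which gives its levels more technical repeats than most members have. The control arrays read 1.33, 1.76, 1.42 and 1.84, and the repletion arrays 1.71, 1.59, 1.63 and 1.53. Levels in depletion ran from 1.13 through a median of 1.36 to 1.58. All 6 depletion arrays lay below the control mean and all 4 repletion arrays above the depletion mean, while the groups overlapped. Depletion differed from control by −0.27 ± 0.16 (limma adjusted p = 0.833), and repletion from depletion by 0.28 ± 0.15 (limma adjusted p = 0.933). Repletion against depletion was positive on all 4 slides that held both groups, at 0.41, 0.17, 0.27 and 0.04 on slides 1, 2, 3 and 5. Of 13 member probes this was the 1 with the same sign on each of those slides. The like counts were 6 of 13 for depletion against control and 9 of 13 for repletion against control, where fewer slides held both groups. The share over all probes was not counted in any comparison, so these counts do not set Prkaa2 apart. The depletion difference rested in part on control replicate 4, without which it was −0.11, and equally on depletion replicate 5, the other array of slide 4. Spots of Prkaa2 on the same array differed with an SD of 0.04 to 0.11, against an SD of 0.22 between the 14 arrays.

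**Figure D2:**
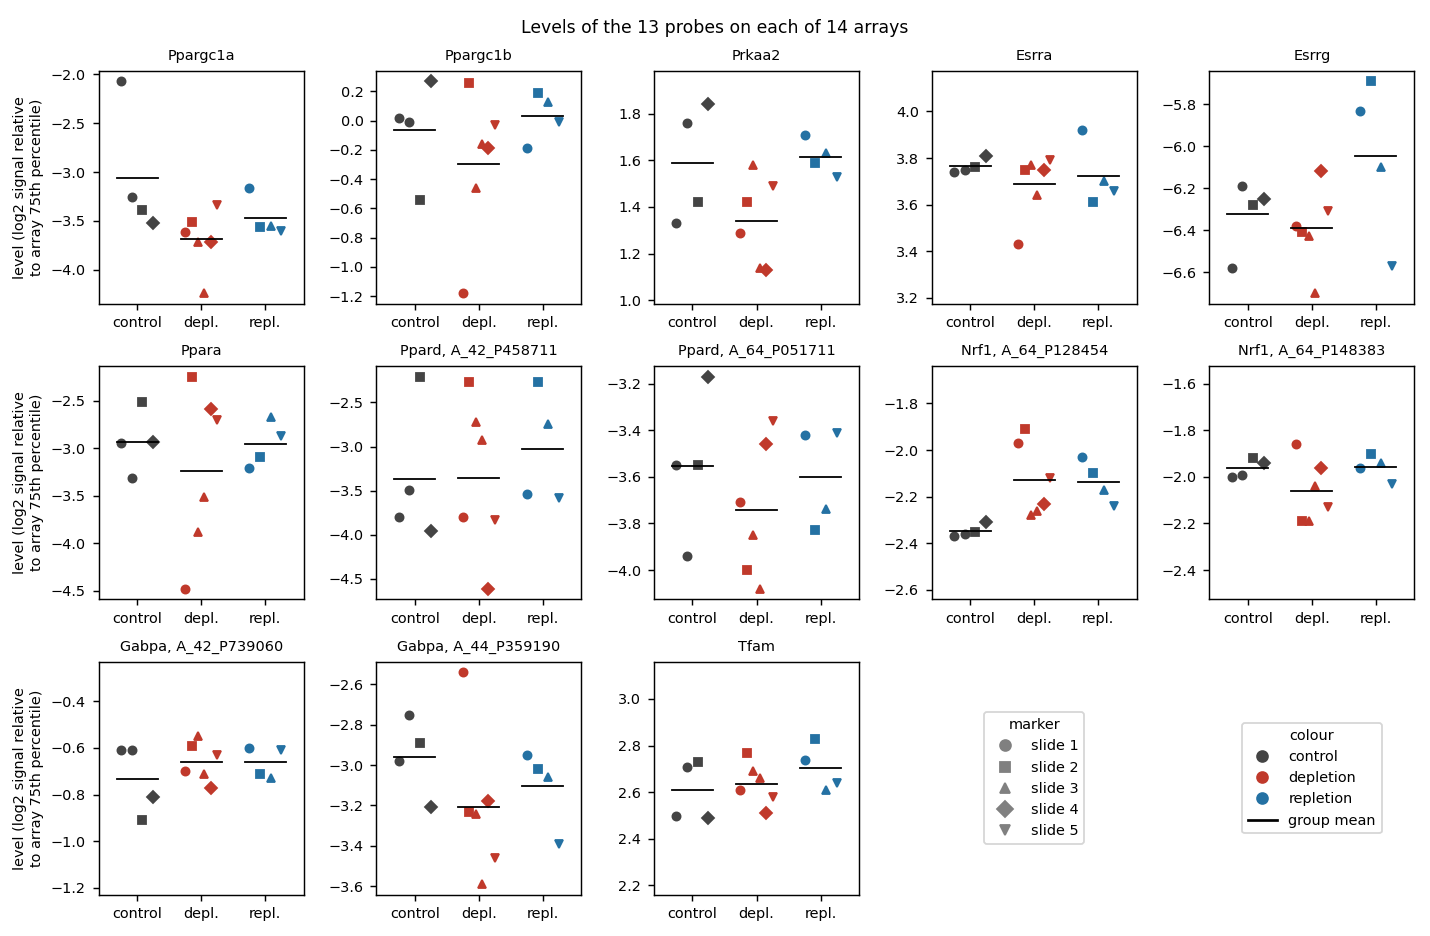
Level of each of the 13 probes on 14 arrays, in log2 units relative to the array's 75th percentile; each point is an array, its colour the diet, its marker the slide, and the bar the group mean. The scale differs from panel to panel. Control replicate 1 stands at −2.07 in the Ppargc1a panel, and only in the A_64_P128454 panel of Nrf1 do the control arrays lie outside the range of both other groups.

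Esrra, the estrogen-related receptor alpha and a main partner of PGC-1 alpha in muscle, had overlapping levels in all 3 groups. Its control arrays read 3.74, 3.75, 3.76 and 3.81 and its repletion arrays 3.92, 3.61, 3.70 and 3.66. The 6 depletion arrays ran from 3.43 through a median of 3.75 to 3.79. The control arrays sat close together, and the lowest array of all was depletion replicate 1. Depletion differed from control by −0.09 ± 0.12 (limma adjusted p = 0.900; 95% interval −0.36 to 0.18), and repletion from control by −0.05 ± 0.13 (interval −0.34 to 0.25). The first changed sign without depletion replicate 1, to 0.04. Its 10 spots per array had SDs of 0.04 to 0.20 within arrays, and the SD between arrays was 0.11.

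Esrrg, the estrogen-related receptor gamma found in oxidative tissue, was read by a dim probe, at 20.4 to 39.9 signal units before scaling. The control arrays read −6.58, −6.19, −6.28 and −6.25, and the repletion arrays −5.83, −5.69, −6.10 and −6.57. Depletion arrays ran from −6.70 through a median of −6.40 to −6.12. Of the repletion arrays, 3 lay above every control array and replicate 4 lay near the lowest. Repletion differed from control by 0.46 ± 0.19 (limma adjusted p = 1.0) and from depletion by 0.37 ± 0.16 (limma adjusted p = 0.933). Within slides repletion exceeded control by 0.55 on slide 1 and 0.59 on slide 2, and exceeded depletion by 0.55, 0.73 and 0.47 on slides 1, 2 and 3, with −0.27 on slide 5. With normexp background correction the first was −0.12 and the second 0.09. With the authors' deposited values they were 0.16 and 0.12. Normexp moved the median of all probes to −0.12 for repletion against control and −0.14 for depletion against control, so the Esrrg value there lies at that median.

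Ppara, a receptor for fatty acids that turns on fat oxidation genes, had the largest residual SD of the members. The control arrays read −2.95, −3.32, −2.52 and −2.94, and the repletion arrays −3.21, −3.09, −2.67 and −2.87. The depletion arrays ran from −4.48 through a median of −3.11 to −2.25. The depletion group held both the lowest and the highest array, and its SD of 0.86 compares with 0.32 in control and 0.24 in repletion. Depletion differed from control by −0.41 ± 0.36 (limma adjusted p = 0.852), with −1.35 on slide 1 and 0.27 and 0.35 on slides 2 and 4. The slide 1 value is depletion replicate 1, and without that array the difference was −0.01, against −0.68 without control replicate 4 or depletion replicate 5. Repletion against depletion was 0.29 ± 0.33, with −0.02 without repletion replicate 3 and 0.03 without depletion replicate 1.

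Ppard, the delta receptor that also acts on fat oxidation in muscle, gave a probe whose levels followed the slide. On A_42_P458711 the control arrays read −3.80, −3.49, −2.21 and −3.96 and the repletion arrays −3.54, −2.27, −2.74 and −3.58. In depletion the arrays ran from −4.61 through a median of −3.37 to −2.27. By slide, the 3 arrays of slide 2 read −2.27 to −2.21 and the 3 of slide 3 −2.93 to −2.72, whatever their diet. The 4 arrays of slide 1 read −3.80 to −3.49, the pair on slide 4 −4.61 to −3.96 and the pair on slide 5 −3.83 to −3.58. The fitted slides spanned 2.02 log2 units (limma F test for slide, adjusted p = 7.79e-05), and it was the only one of 13 member probes past 0.05, beside 28% of all probes.

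The other Ppard probe, A_64_P051711, starts 0.5 kb away on the same chromosome and did not show that order. Its slide means ran from −3.89 on slide 3 to −3.31 on slide 4, with an adjusted p of 0.138 in limma's F test for slide; with the authors' deposited values that p was 0.00662. The control arrays read −3.55, −3.94, −3.55 and −3.17 and the repletion arrays −3.42, −3.83, −3.74 and −3.41. Levels in depletion ran from −4.08 through a median of −3.78 to −3.36, overlapping both other groups. With slide as a block, depletion differed from control by −0.25 ± 0.13 on the first probe and −0.17 ± 0.15 on the second (limma adjusted p = 0.833 and 0.851). The first was −0.11 without control replicate 4 or depletion replicate 5, and the second −0.04 without control replicate 3. Without the block, the first probe's difference was 0.004 and the second kept its sign.

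**Figure D3:**
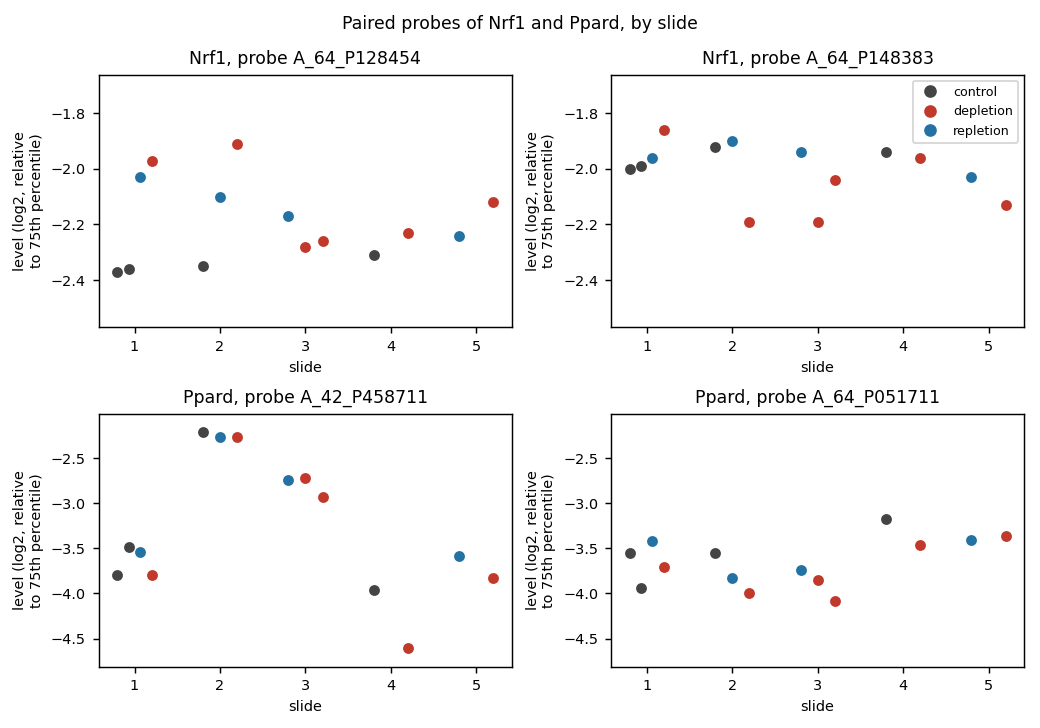
Levels (log2, relative to the array's 75th percentile) of the paired probes of Nrf1 (top) and Ppard (bottom) by slide, coloured by diet; each point is an array and panels of a gene share a scale. Probe A_42_P458711 of Ppard sits near −2.25 on slide 2 and near −3.66 on slide 1, while its partner A_64_P051711 stays between −4.08 and −3.17.

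Nrf1, nuclear respiratory factor 1, gave the clearest separation of control from the other diets, on a single probe. On A_64_P128454 the control arrays read −2.37, −2.36, −2.35 and −2.31, and the repletion arrays −2.03, −2.10, −2.17 and −2.24. The 6 depletion arrays ran from −2.28 through a median of −2.18 to −1.91. Every depletion and every repletion array lay above every control array. Across all probes, groups did not overlap in 0.860% for depletion against control, 1.16% for repletion against control and 0.315% for repletion against depletion; among the members this probe was the 1 of 13 in the first and in the second, and 0 of 13 did in the third. Depletion differed from control by 0.30 ± 0.10 (limma adjusted p = 0.833), a fold of 1.23 with a 95% interval of 1.06 to 1.44. Repletion differed from control by 0.28 ± 0.11 (limma adjusted p = 1.0), and repletion from depletion by −0.03 ± 0.09. Within slides the depletion difference was 0.39, 0.44 and 0.08 on slides 1, 2 and 4, and the repletion difference 0.34 and 0.25 on slides 1 and 2. The control arrays differed with an SD of only 0.02, against 0.16 in depletion. With normexp background correction the groups overlapped, by 0.20 for depletion and 0.16 for repletion, while the depletion difference was 0.23 beside a median of −0.14 over all probes. The gap from the highest control to the lowest repletion array narrowed to 0.03 with quantile normalization and 0.02 with the authors' deposited values.

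The second Nrf1 probe, A_64_P148383, did not show that pattern. The control arrays read −2.0, −1.99, −1.92 and −1.94, the repletion arrays −1.96, −1.90, −1.94 and −2.03, and the depletion arrays ran from −2.19 through a median of −2.08 to −1.86. All 3 groups overlapped. Depletion differed from control by −0.05 ± 0.10 (limma adjusted p = 0.933), with an interval of −0.28 to 0.18. That interval overlaps the 0.08 to 0.53 of A_64_P128454, and the difference between the probes was not tested. The depletion difference on A_64_P148383 was −0.13 without depletion replicate 1. Repletion differed from control by 0.07 ± 0.11. The files give both probes the same transcript accession and do not say which exon or isoform each reads.

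Gabpa, the DNA-binding subunit of GABP (also called NRF2), was read by a pair of probes. On A_42_P739060, with 10 spots per array, the control arrays read −0.61, −0.61, −0.91 and −0.81 and the repletion arrays −0.60, −0.71, −0.73 and −0.61. Depletion arrays ran from −0.77 through a median of −0.67 to −0.55. The groups overlapped, and the differences from control were 0.08 ± 0.10 for depletion and 0.05 ± 0.11 for repletion (limma adjusted p = 0.889 and 1.0). The other probe, A_44_P359190, spans 2522 bases of the chromosome with its 60 bases, so it crosses a splice junction. Its control arrays read −2.98, −2.75, −2.89 and −3.21, its repletion arrays −2.95, −3.02, −3.06 and −3.39, and its depletion arrays ran from −3.59 through a median of −3.24 to −2.54. The differences were −0.04 ± 0.16 for depletion and 0.04 ± 0.17 for repletion (limma adjusted p = 0.973 and 1.0), with 95% intervals of −0.39 to 0.31 and −0.35 to 0.42. The highest array of this probe was again depletion replicate 1, and without that array the depletion difference from control was −0.21.

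Tfam, the mitochondrial transcription and packaging factor, was the member with the narrowest interval in all 3 comparisons. Its control arrays read 2.50, 2.71, 2.73 and 2.49, its repletion arrays 2.74, 2.83, 2.61 and 2.64, and its depletion arrays ran from 2.51 through a median of 2.64 to 2.77. The groups overlapped throughout. Depletion differed from control by 0.04 ± 0.09 (limma adjusted p = 0.934), a fold of 1.03 with a 95% interval of 0.894 to 1.19. The repletion fold was 1.06 with an interval of 0.905 to 1.24. By comparison the depletion interval of Ppara ran from a fold of 0.430 to 1.32, so the precision of these arrays differs widely between members.

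Depletion replicate 1 was the highest or the lowest of 14 arrays on 5 of 13 member probes, and on 33.9% of all probes, the largest share of any array; the other arrays held 6.35% to 20.6%. It was lowest for Ppargc1b, Esrra and Ppara. Control replicate 4 and depletion replicate 4 were extreme on 4 member probes each. Residual SDs around the fit were 0.07 for Tfam, 0.42 for both coactivators and 0.56 for Ppara, beside a median of 0.243 over all probes.

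Among the genes whose levels over the 14 arrays were most like those of Ppargc1a, after subtraction of slide means, were Ly49i4 (Pearson r = 0.963), Nxph1 (0.933), Ndc80 (0.919) and Kif20a (0.914), out of 26081 probes compared. Without control replicate 1 these values were 0.877, 0.782, 0.663 and 0.664 over 13 arrays. Among the members, Ppara had r = 0.597, A_64_P051711 of Ppard 0.471, Ppargc1b 0.460 and Esrra 0.437 with Ppargc1a, and Tfam had −0.649. Tfam moved to 0.039 without control replicate 1, while Esrra and Prkaa2 stood at 0.697 and 0.741. The arrays share scaling and slide, so these are descriptions of the arrays.

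Among 17 coactivators and corepressors that act with or against PGC-1, 0 passed the adjusted threshold in any comparison, and 9 were higher and 8 lower in depletion than in control (median 0.01). Nrip1, the corepressor RIP140 that opposes PGC-1 on fat oxidation genes, read −0.40, −0.25, −0.07 and −0.81 in control and −0.01, 0.28, −0.24 and 0.25 in repletion. Its depletion arrays ran from −1.14 to −0.05, so the groups overlapped. Repletion differed from depletion by 0.48 ± 0.13 (limma adjusted p = 0.933) and from control by 0.46 ± 0.15 (limma adjusted p = 1.0). Perm1, a muscle regulator induced by PGC-1, differed from control by −0.55 ± 0.25 in depletion (limma adjusted p = 0.833), and by −0.17 without depletion replicate 1. Differences of depletion from control were −0.44 for Ncoa2 and −0.40 for Lpin1, with −0.20 for Ncoa2 without depletion replicate 1 and −0.20 for Lpin1 without control replicate 3. In repletion Perm1 stood at −0.48 and Ncoa1 at 0.22 from control, and from depletion Ncoa2 stood at 0.36 and Kat2a at 0.10. Without repletion replicate 1, Perm1 stood at −0.85 and Ncoa2 at 0.16, and without repletion replicate 3 Kat2a stood at 0.07 and Ncoa2 at 0.59.

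Of 12 other nuclear receptors, 0 passed the adjusted threshold, with 10 lower and 2 higher in depletion than in control (median −0.10) and 11 higher in repletion than in depletion (median 0.13). Esrrb, the third estrogen-related receptor, differed between repletion and depletion by 0.88 ± 0.18 (limma adjusted p = 0.933). It was well above background on 11 of 14 arrays, its levels ran from −8.88 to −4.02, and its difference with normexp was 0.20. Its depletion difference from control was −0.53 ± 0.20 with the slide block and ranged from −2.06 to −0.16 over the alternatives. Its repletion difference from control was 0.35 with the slide block, 0.22 without repletion replicate 3, and −0.47 without the block. The remaining differences named by rule were −0.23 for Nr1h3 and −0.14 for Rxra in depletion against control, 0.51 for Nr1d1 and 0.25 for Thrb in repletion against control, and 0.58 for Nr1d1 and 0.24 for Thra in repletion against depletion. Single arrays moved several of these. Nr1h3 stood at −0.07 and Rxra at 0.005 without control replicate 4 or depletion replicate 5. In repletion against control Nr1d1 stood at 0.08 without control replicate 3 and Thrb at 0.04 without repletion replicate 1, and Thra stood at 0.11 against depletion without depletion replicate 1. The list's median for repletion against depletion was 0.04 without repletion replicate 1.

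Upstream of PGC-1 alpha, 20 of 21 listed kinase subunits, phosphatase subunits and factors were measured and 0 passed the adjusted threshold; Crtc3 had no probe here. In depletion 12 were lower and 8 higher than in control, with a median of −0.12. Creb1, which binds the response element shown for Ppargc1a, stood at −0.23 ± 0.11 (limma adjusted p = 0.833), with all 6 depletion arrays below the control mean, and at 0.20 in repletion against depletion. Differences of depletion from control were −0.47 for Prkag2, a regulatory subunit of AMP-activated protein kinase, and −0.26 for Ppp3r1, the regulatory subunit of calcineurin. Without depletion replicate 1 they were −0.24 and −0.17, and the list's median was −0.07; without control replicate 4 or depletion replicate 5 Prkag2 stood at −0.72. Repletion stood at 0.78 from control for Mapk11, 0.49 for Atf2 and −0.36 for Prkag2. Each rested on an array: Mapk11 stood at 0.04 without repletion replicate 2, Atf2 at −0.05 without control replicate 3 and Prkag2 at −0.12 without control replicate 1. Against depletion it stood at 0.69 for Mapk11 and −0.24 for Prkaa1, the other catalytic subunit of the kinase, and at 0.10 for Mapk11 without repletion replicate 2. Creb1 stood at 0.12 there without repletion replicate 1.

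Downstream, of 26 targets of the estrogen-related and peroxisome proliferator-activated receptors, 12 were higher and 14 lower in depletion than in control (median −0.02), and 0 passed the adjusted threshold. Idh3a, a subunit of a citric acid cycle enzyme, stood at −0.48 ± 0.14 (limma adjusted p = 0.833), with 0.69 to 1.37 in depletion against 1.36 to 1.61 in control. Cd36, a fatty acid transporter, stood at 0.47 ± 0.15 (limma adjusted p = 0.833). Its arrays read 5.07 to 5.6 in depletion against 4.78 to 5.05 in control. These ranges did not overlap, as in 0.86% of all probes, for a gene named by its small unadjusted p. Cpt1b, which admits fatty acids to the mitochondrion, stood at 0.21. Without depletion replicate 1 Idh3a stood at −0.34, Cd36 at 0.36, Cpt1b at 0.14 and the list's median at 0.11. In repletion against control, differences were −0.22 for Angptl4, −0.27 for Idh3a and 0.26 for Cd36. Against depletion, Idh3a stood at 0.22, Cd36 at −0.21 and Cpt1b at −0.13. With single arrays left out, Idh3a stood at 0.10 against depletion without repletion replicate 1, Cd36 at −0.10 without repletion replicate 2 and Cpt1b at −0.08 without depletion replicate 1. Against control, Idh3a stood at −0.44 without repletion replicate 1 and −0.15 without repletion replicate 2, and Cd36 at 0.39 without the latter.

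Of 16 genes on the NRF and TFAM side, 7 were higher and 9 lower in depletion than in control (median −0.02), and 0 passed the adjusted threshold. Depletion stood at −0.29 from control for Polg, the mitochondrial DNA polymerase, at 0.16 for Tomm20 and at −0.36 for Mterf2. Polg stood at −0.15 without control replicate 3, and without depletion replicate 1 Tomm20 stood at 0.10 and Mterf2 at −0.16. Repletion stood at 0.09 from control for Ssbp1, 0.08 for Mterf1 and 0.09 for Mterf3. Against depletion it stood at −0.26 for Alas1, 0.20 for Polg and 0.13 for Mterf3. Without repletion replicate 1 Polg stood at 0.03 and Mterf3 at 0.04, and without repletion replicate 4 or depletion replicate 6 Alas1 stood at −0.16. Against control, Ssbp1 stood at 0.04 without control replicate 1 and Mterf3 at −0.04 without repletion replicate 1.

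**Figure D4:**
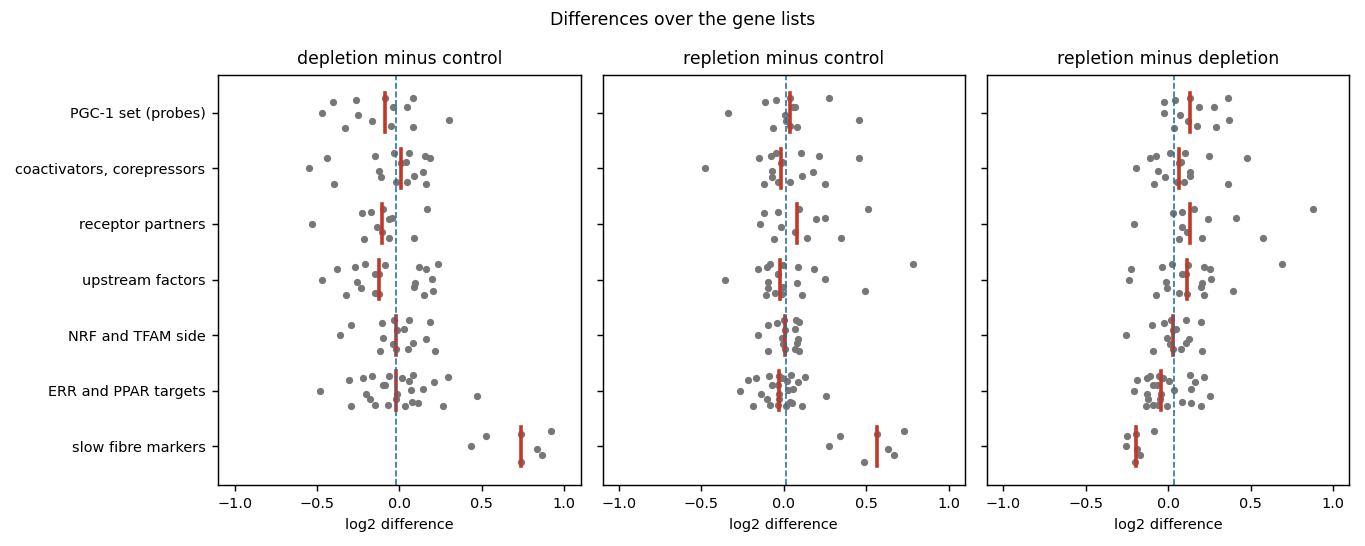
Log2 differences of single genes (grey points; probes for the PGC-1 set) in 7 gene lists and 3 comparisons, with the list median (red bar) and the median of all probes (dashed line). Medians of the other lists lie between −0.12 and 0.14, while the slow fibre markers have medians of 0.74 and 0.57 against control.

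Slow fibre markers were included because PGC-1 alpha is known for promoting the slow oxidative fibre type. All 7 (Myh7, Tnnt1, Tnni1, Tnnc1, Atp2a2, Myl2, Myl3) were higher in depletion than in control, with a median difference of 0.74 and a range of 0.43 to 0.92. All 7 were higher in repletion too, with a median of 0.57 that was 0.29 without repletion replicate 2, and 0 passed the adjusted threshold in either comparison. Myh7, the slow myosin heavy chain, read 6.08, 6.66, 6.85 and 6.49 in control and 6.72 to 7.62 in depletion, a difference of 0.74 ± 0.31 (limma adjusted p = 0.833). Summed over the list, levels were 434 to 540 times the 75th percentile in control, 496 to 919 in depletion and 417 to 891 in repletion. Every marker of the list was well above background on 14 of 14 arrays. The part of fibre makeup in the values of Ppargc1a, Esrrg or Nrf1 was not tested.

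Fast fibre markers (8 of 8 well above background on every array) summed to 1528 to 1927 times the 75th percentile in control, 1439 to 1933 in depletion and 1520 to 1997 in repletion. The 3 red blood cell markers measured (Hbb, Alas2, Slc4a1; Hba1 had no probe under that name) summed to 17.4 to 37.2 in control, 21.0 to 86.4 in depletion and 22.4 to 44.3 in repletion. The 6 macrophage markers summed to 2.25 to 2.67 in control, 2.12 to 4.44 in depletion and 3.09 to 3.38 in repletion. Their part in the members' values was not tested. Among the brown fat markers Ucp1 and Elovl3 were not well above background on some arrays.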

How the data were processed

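Spot intensity was read from the deposited scanner files, made with Agilent Feature Extraction 11.5.1.1, per the file headers; the processed signal is background-subtracted within each array. Outlier-marked spots were set to missing, log2 taken of the signal over each array's 75th percentile, and spots of a probe averaged. Probes well above background on at least 4 arrays, with at least 2 values per group, were kept (26391 probes, 16275 genes). The series table holds the authors' deposited log2 values for 26902 probes, with normalization not given in the sources used here, and served as an alternative; per the submitters' processing notes limma was used. Depth has no counterpart on arrays, where their number limits precision.

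All 14 arrays, grouped by title, were fitted with limma 3.58.1 in R 4.3.3 (diet, slide as block; eBayes; Benjamini-Hochberg over kept probes). Probe coordinates are the files' own (rn4); names came from a RefSeq table by accession (18438 probes), symbol or synonym. The members, lists, alternatives and rules were chosen with earlier results of these data known. Named pathway genes are the 3 with the smallest unadjusted p per list and comparison, at the gene's brightest probe; likeness skipped predicted loci (LOC symbols). A gene named by the likeness rule and a marker list are not reported here. On simulated data with 26082 probes, 2-fold changes were recovered at 54%, 50% and 68% in the order depletion against control, repletion against control and repletion against depletion, and 1.5-fold changes at 14%, 6% and 30%. Changes of several sizes, 50 probes at each, were planted together with independent normal noise, so these rates may not hold for the real arrays. Python 3.11.15, numpy 2.4.6, pandas 2.3.3 and matplotlib 3.10.9 were used.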

Additional observations from a re-analysis of the deposited data

Results flagged for a closer look

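Of 39 combinations of member probe and diet group, 1 held an array far from the rest of its group by Dixon's test at 95%; chance gives about 1 in 20. It was Ppargc1a in repletion replicate 1, at −3.16 against −3.55 for the nearest other repletion array, a gap of 0.893 of the group's range. Control replicate 1, which lay farther from its group in log2 units, did not pass that test.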

How the results depend on the processing

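Under each of 24 alternatives 0 probes were called in every diet comparison and in the diet F test; unadjusted p under 0.05 was met by 225 to 2222 probes per comparison. Of 39 member differences 16 kept their sign under every alternative and 23 changed it at least once. The lowest limma adjusted p of any was 0.581. Those that kept it in depletion against control include Ppargc1a, Prkaa2 and A_64_P128454 of Nrf1. They also include Ppargc1b and Ppara, which stood at only −0.005 and −0.006 without depletion replicate 1. The alternatives reuse the same arrays, so a kept sign is not independent evidence of a difference. Precision is limited by 4 to 6 arrays per group, by slide, and for Esrrg and Esrrb by dim signal. The settings without slide 2 and, for likeness, without control replicate 1 were chosen after seeing the data. The cause of the changes below was not tested.

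The slide F test called 2107 probes with normexp and 3821 without slide 2, and 6383 to 7419 when arrays were left out in turn. The slide spread of Ppard A_64_P051711 passed with the authors' values (0.552).

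The labels do not say whether replicate numbers pair the rats. Same-numbered arrays correlated between −0.489 and 0.717 in their deviations from group means. The lowest value came from arrays on different slides and the highest from arrays on the same slide, so these correlations cannot decide it. With the replicate block in place of slide, the counts of calls were 0 as well, and signs changed for Ppard A_42_P458711 (depletion against control 0.434, repletion against control 0.328, repletion against depletion −0.105), Gabpa A_44_P359190 (repletion against control −0.145), Esrrg (depletion against control −0.159), Ppard A_64_P051711 (repletion against control −0.051) and Esrrb (repletion against control −0.467). With no slide block they were 0.004 and 0.328 for Ppard A_42_P458711 against control, −0.145 for Gabpa A_44_P359190, −0.069 for Esrrg in depletion, −0.051 for Ppard A_64_P051711 and −0.467 for Esrrb. With slide as a random block, repletion against control was 0.117 for Ppard A_42_P458711, −0.048 for Gabpa A_44_P359190, −0.02 for Ppard A_64_P051711 and −0.052 for Esrrb.

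With normexp, which moved the median of all probes to −0.144 and −0.116 against control, repletion against control was −0.093 for Gabpa A_44_P359190, −0.122 for Esrrg, −0.171 for Ppard A_64_P051711, −0.008 for Nrf1 A_64_P148383, −0.211 for Esrrb and −0.262 for Thrb, and depletion against control was −0.215 for Esrrg. The gap between control and depletion on Nrf1 A_64_P128454 became −0.198 and that between control and repletion −0.164. The latter gap was 0.032 with quantile normalization and 0.021 with the authors' deposited values. With quantile normalization repletion against control was −0.022 for Prkaa2 and −0.021 for Ppard A_64_P051711. With the authors' values it was −0.037 for Gabpa A_42_P739060, −0.014 for Prkaa2, −0.007 for Gabpa A_44_P359190 and −0.016 for Ppard A_64_P051711, and Esrra was −0.015 in repletion against depletion.

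With depletion replicate 1 counted as repletion, repletion against depletion was −0.073 for Esrra, −0.034 for Ppargc1a, −0.095 for Ppara and 0.0 for Nrf1 A_64_P128454, and repletion against control −0.172 for Ppargc1b, −0.069 for Prkaa2 and −0.023 for Ppard A_64_P051711. Without slide 2, depletion against control was −0.008 for Gabpa A_42_P739060, 0.072 for Gabpa A_44_P359190 and 0.026 for Nrf1 A_64_P148383. Repletion against control was −0.02 for Gabpa A_42_P739060, −0.324 for Ppargc1b, −0.071 for Prkaa2, 0.043 for Ppara and −0.002 for Mapk11, and repletion against depletion 0.018 for Nrf1 A_64_P128454.

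With each array left out in turn, repletion against control ranged from −0.153 to 0.028 for Ppard A_42_P458711, −0.13 to 0.149 for Ppard A_64_P051711, −0.036 to 0.079 for Gabpa A_42_P739060, −0.038 to 0.175 for Gabpa A_44_P359190, −0.213 to 0.014 for Esrra, −0.399 to 0.154 for Ppargc1b, −0.089 to 0.118 for Prkaa2, −0.321 to 0.207 for Ppara, −0.035 to 0.148 for Mterf3 and −0.048 to 0.764 for Atf2. Depletion against control ranged from −0.148 to 0.038 for Esrra, −0.206 to 0.06 for Gabpa A_44_P359190, −0.132 to 0.01 for Nrf1 A_64_P148383 and −0.219 to 0.005 for Rxra. Repletion against depletion ranged from −0.069 to 0.016 for Gabpa A_42_P739060, −0.046 to 0.181 for Gabpa A_44_P359190, −0.065 to 0.093 for Esrra, −0.02 to 0.545 for Ppara and −0.081 to 0.013 for Nrf1 A_64_P128454.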
